A study of Xenopus laevis with 40 samples.

Results

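The comparison described here asks which transcripts differ when dominant-negative Multicilin is added to a block of Notch signalling in the mature mucociliary epidermis of Xenopus laevis. It rests on 4 of the 40 bulk RNA-seq libraries of the study, chosen by their labels alone: 2 of explants labelled suh-dbm+dnmcidas and 2 labelled suh-dbm, all at Nieuwkoop and Faber stage 32. The tissue was the animal cap, cut from wild-type embryos at stage 8 and cultured, which forms a larval skin with multiciliated, ionocyte, small secretory, goblet and basal cells. Both groups came from embryos that had received suh-dbm mRNA (a form of Su(H), the DNA-binding partner of activated Notch, that blocks the pathway) at 100 ng/ul in 4 animal injections at the 4-cell stage, and the test group also received dnmcidas mRNA (dominant-negative Multicilin) at 100 ng/ul. The test group therefore carried more injected mRNA, and an effect of that added amount cannot be told apart from an effect of dnmcidas. Uninjected explants of stage 32 (2 libraries) are set beside these values, and the same pair of injected groups at stages 16 and 25 is used to ask whether the effect changed with age. Each group held 1 library from each of 2 experiments, started from different females and fertilizations. How many explants made up a library is not given in the sources used here.

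Multicilin, the product of mcidas, is a coiled-coil protein of the geminin family that acts with E2f4 or E2f5 and Dp1 to switch on centriole amplification and cilium genes in cells fated to become multiciliated. In this skin Notch signalling limits how many cells take that fate, and a block of Notch lets more of them do so. Downstream, Foxj1 drives genes of the motile axoneme and Rfx factors drive genes of cilium assembly and transport. A motile cilium carries outer and inner dynein arms on its doublet microtubules, radial spokes and a central pair that regulate them, and proteins inside the doublets, and is built by intraflagellar transport on a basal body, which is a modified centriole.

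The libraries of the comparison held 34399774 and 36582033 counts with dnmcidas and 44751645 and 60801732 with suh-dbm alone, and 31014 to 33208 genes had at least 1 count. Uninjected libraries held 52675155 and 25901215. Levels are given as CPM, which is a gene's count scaled to a common total per library, experiment 1 first. Fold changes are log2 of suh-dbm+dnmcidas over suh-dbm, from edgeR's quasi-likelihood fit of all 40 libraries. They carry approximate standard errors (SE), each computed as the absolute fold change divided by the square root of the test's F statistic. X. laevis carries an L and an S copy of many genes. They are treated as separate genes, although reads could be shared where the copies are alike.

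The injected transcripts checked the labels. The S copy of the Multicilin gene, mcidas.S (gene49198), stood at 142 and 234 CPM in the 2 libraries with dnmcidas. It stood at 0.268 and 0.214 CPM with suh-dbm alone (12 and 13 counts) and at 0.0380 and 0.116 CPM in uninjected explants. It was left out of every test. The rbpj.S copy, the Su(H) gene, was at 9.13 and 133 CPM with dnmcidas and at 6.66 and 128 CPM without it, so the experiments differed widely and the arms of each experiment were alike. Uninjected explants had 3.80 and 4.90 CPM of it. The centrin gene cetn4.L also split by experiment: it was at 1464 and 4.32 CPM with dnmcidas and at 1297 and 32.2 CPM with suh-dbm alone, against 19.2 and 34.2 CPM in uninjected explants. The other injected groups of stage 32, labelled nicd (nicd mRNA at 120 ng/ul) and foxa1MO (3 pmol of morpholino), split the same way, with 1742 and 1497 CPM in experiment 1 and 2.40 and 29.5 CPM in experiment 2. The part of these differences in the results was not tested. The experiments enter as pairs in the blocked fits given below.

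More genes were lower than higher where dnmcidas was added. Of 31647 genes tested, 734 were called lower and 189 higher (edgeR quasi-likelihood, Benjamini-Hochberg adjusted p under 0.05), which is 2.32% and 0.597% of all genes tested, or 2.92% in both directions. The falls were large, with a median of -4.06 among the lower calls and 379 of them below -4, while the median of the higher calls was 2.41. The median over all genes tested was 0. A fit that paired the libraries by experiment within each stage called 2261 genes (7.14% of those tested), 1360 lower (4.3%) and 901 higher (2.85%). It also called 734 of the 734 lower and 188 of the 189 higher genes. Without experiment 2 of suh-dbm+dnmcidas 378 genes were called lower and 70 higher. Without experiment 1 of suh-dbm 53 were called higher, and without experiment 2 of suh-dbm 114 were. In bulk RNA, fewer cells of a type and less RNA per cell cannot be told apart, which holds for each result given here.

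**Figure D1:**
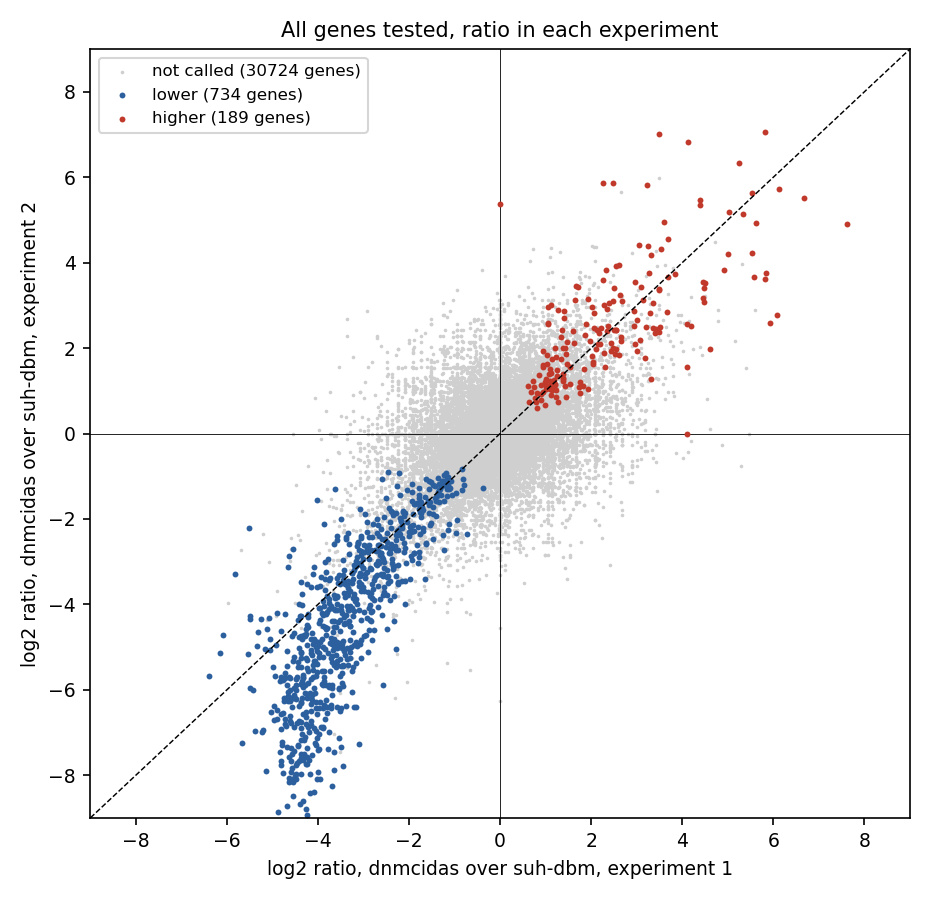
The log2 ratio of suh-dbm+dnmcidas over suh-dbm in experiment 1 (horizontal) and experiment 2 (vertical) for each of the 31647 genes tested, with the 734 lower calls in blue, the 189 higher calls in red and equal ratios on the dashed line. Most lower calls lie under the line, since 573 of them were lower in experiment 2 than in experiment 1.

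The scatter of the ratios by experiment shows that the size of the falls differed between the experiments. The lower calls had a median ratio of -3.49 in experiment 1 and -4.25 in experiment 2, and the higher calls had 2.16 and 2.30. Of the 923 calls 921 had the same sign in both. The exceptions were higher calls with a ratio of 0 in 1 experiment: crx.S in experiment 1, and LOC108698411 (named after its values were seen) in experiment 2, which had a ratio of 4.11 in experiment 1.

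Both copies of foxj1, the forkhead regulator of motile cilia, fell. The S copy, foxj1.S, was at 1.98 and 0.219 CPM with dnmcidas, and at 51.5 and 51.6 CPM with suh-dbm alone. Both dnmcidas libraries lay far below both suh-dbm libraries, and uninjected explants had 39.6 and 66.1 CPM. The log2 fold change was -5.72 ± 0.96 SE (edgeR adjusted p 0.000392). The L copy, foxj1.L, fell by 4.95 on the log2 scale (± 0.70 SE, adjusted p 4.46e-05), and foxj1.2.L, a copy of a related forkhead gene, fell by 4.19 (± 0.75 SE, adjusted p 0.000774), although the call of foxj1.2.L was lost without experiment 2 of suh-dbm+dnmcidas. These 3 were the called members among 18 tested copies of ciliary transcription factor genes, whose median was -0.61.

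The remaining copies of the list were not called. The Rfx factor rfx2.L, which acts on intraflagellar transport genes, was at 7.21 and 9.18 CPM with dnmcidas and at 13.1 and 10.48 CPM without it (log2 fold change -0.71 ± 0.39 SE, edgeR adjusted p 0.62). The p53-family gene tp73.L was at 36.2 and 26.3 against 21.5 and 24.3 CPM (0.27 ± 0.66 SE, adjusted p 1). The groups overlapped for neither gene, and neither difference passed the test. Among 9 tested copies of upstream regulators 0 were called by edgeR's fit of all stages or DESeq2, with 2 at an unadjusted edgeR p under 0.05 and a median of 0.01. The within-stage pairing called tfdp1.L, the Dp1 gene and partner of E2f4 and E2f5, higher (21.05 and 27.6 against 14.5 and 11.99 CPM, adjusted p 0.0162, against 0.298 without pairing). The remaining copy of Multicilin, mcidas.L, had 0 and 0.0547 CPM with dnmcidas, and 0.358 and 0.296 CPM with suh-dbm alone. Its difference did not pass the test (adjusted p 0.683), and its counts were near 0 in every library of the stage. The upstream gene copy gmnc.L was also low, at 0.465 and 0.191 against 0.0894 and 0.0329 CPM, and was not called (2.25 ± 1.38 SE, edgeR adjusted p 0.705). The other copy, gmnc.S, had 0 counts in all libraries of the comparison.

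Most listed genes of the beating axoneme fell. Of the 105 copies tested in 4 lists of axonemal parts, 99 were called lower and 0 higher, beside 2.32% of all genes that were called lower. Without experiment 2 of suh-dbm+dnmcidas the count was 76. The summed level of all 109 listed copies was 402.5 and 199.8 CPM with dnmcidas and 4966 and 4626 CPM with suh-dbm alone, so that 8.10% and 4.32% of the suh-dbm level was left in experiments 1 and 2. Uninjected explants had 4403 and 4546 CPM.

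In the outer dynein arms, which generate most of the power of the stroke, 14 of 15 tested copies were called lower, and the list's median was -4.02. The heavy chain gene dnah9.S was at 9.83 and 0.984 CPM with dnmcidas and at 184 and 162 CPM with suh-dbm alone (log2 fold change -5.16 ± 0.85 SE, edgeR adjusted p 0.000291). The docking gene armc4.S fell by 5.47 (± 0.73 SE, adjusted p 2.53e-05), from 66.2 and 68.1 CPM to 3.02 and 0.383 CPM. The intermediate chain gene dnai1.L went from 111 and 104 CPM to 8.37 and 2.51 CPM. For each of the 3 genes the groups were far apart, and the dnmcidas library of experiment 2 was the lowest. The light chain genes dnal4.S and dnal4.L had the smallest falls among the called members, by 2.31 and 2.15. The copy that was not called was dnah11.L, which was near 1 CPM in all libraries of the comparison (0.610 and 1.64 against 0.648 and 1.09 CPM).

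In the inner arms and their rulers 15 of 16 tested copies were called lower, with a median of -4.58. The light chain gene tctex1d1.L fell by 5.53 (± 0.71 SE, edgeR adjusted p 1.44e-05), from 11.4 and 14.4 CPM to 0.465 and 0.164 CPM. The p28 light chain gene dnali1.S fell by 5.25 (± 0.41 SE) and the heavy chain gene dnah10.L by 5.14 (± 0.76 SE). The ruler genes, whose products space the arms along the doublet, fell by unequal amounts: ccdc39.L by 4.37 (± 0.48 SE) and ccdc40.S by 2.66 (± 0.44 SE). The heavy chain gene dnah14.L was at 8.60 and 2.90 CPM against 26.3 and 18.0 CPM, which passed the test with pairing within stage (adjusted p 0.0123) and not without it (0.164).

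The list of radial spoke and central pair genes also holds genes of the dynein regulatory complex, such as drc1.L and iqcd.L. Of its 33 tested copies 30 were called lower, with a median of -4.22. The spoke head and stalk genes rsph14.L, rsph3.L and rsph1.L fell by 5.25, 5.05 and 4.91. The central pair gene hydin.S was at 6.69 and 1.15 CPM with dnmcidas and at 127 and 81.3 CPM with suh-dbm alone (log2 fold change -4.89 ± 0.81 SE, edgeR adjusted p 0.000331). The smallest called fall of the list was that of iqca1.S, by 2.88, which was called without experiment 1 of suh-dbm and lost in the other 3 leave-outs. The call of rsph1.L was lost without experiment 2 of suh-dbm+dnmcidas. The L copy, iqca1.L, was at 2.30 and 3.20 against 43.6 and 65.2 CPM, and was called with pairing (adjusted p 0.0162) or with the stage 32 libraries alone (0.00547), but not in the fit of all stages (0.544). The other members not called were iqcg.S and ccdc65.L, both under 0.3 CPM in every library of the comparison.

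Microtubule inner proteins and tektins line and stiffen the doublets. Their list also holds some other axonemal genes, such as cfap43.L, cfap44.L and cfap100.L. It had the deepest median of all the lists, at -4.86, and 40 of its 41 tested copies were called lower. The tektin gene tekt1.S fell by 5.51 (± 0.90 SE, edgeR adjusted p 0.000305), from 34.5 and 33.6 CPM to 1.54 and 0.137 CPM. Its paralog tekt2.S was at 7.44 and 1.64 against 135 and 139 CPM. The steepest falls of the list, those of meig1.L (-5.98 ± 1.11 SE) and tppp3.L (-5.72 ± 1.07 SE), came from low levels, with at most 0.137 CPM in either dnmcidas library, and the call of tppp3.L was lost without experiment 2 of suh-dbm+dnmcidas. The shallowest members were nme7.L, called at -1.19 (± 0.28 SE, adjusted p 0.0133) but not in 3 of the 4 leave-outs of a library, and cfap20.S, at -1.52 (± 0.48 SE), which passed with pairing (adjusted p 0.0168) and not without it (0.107). Their partner copies fell further, nme7.S by 3.68 and cfap20.L by 2.91.

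**Figure D2:**
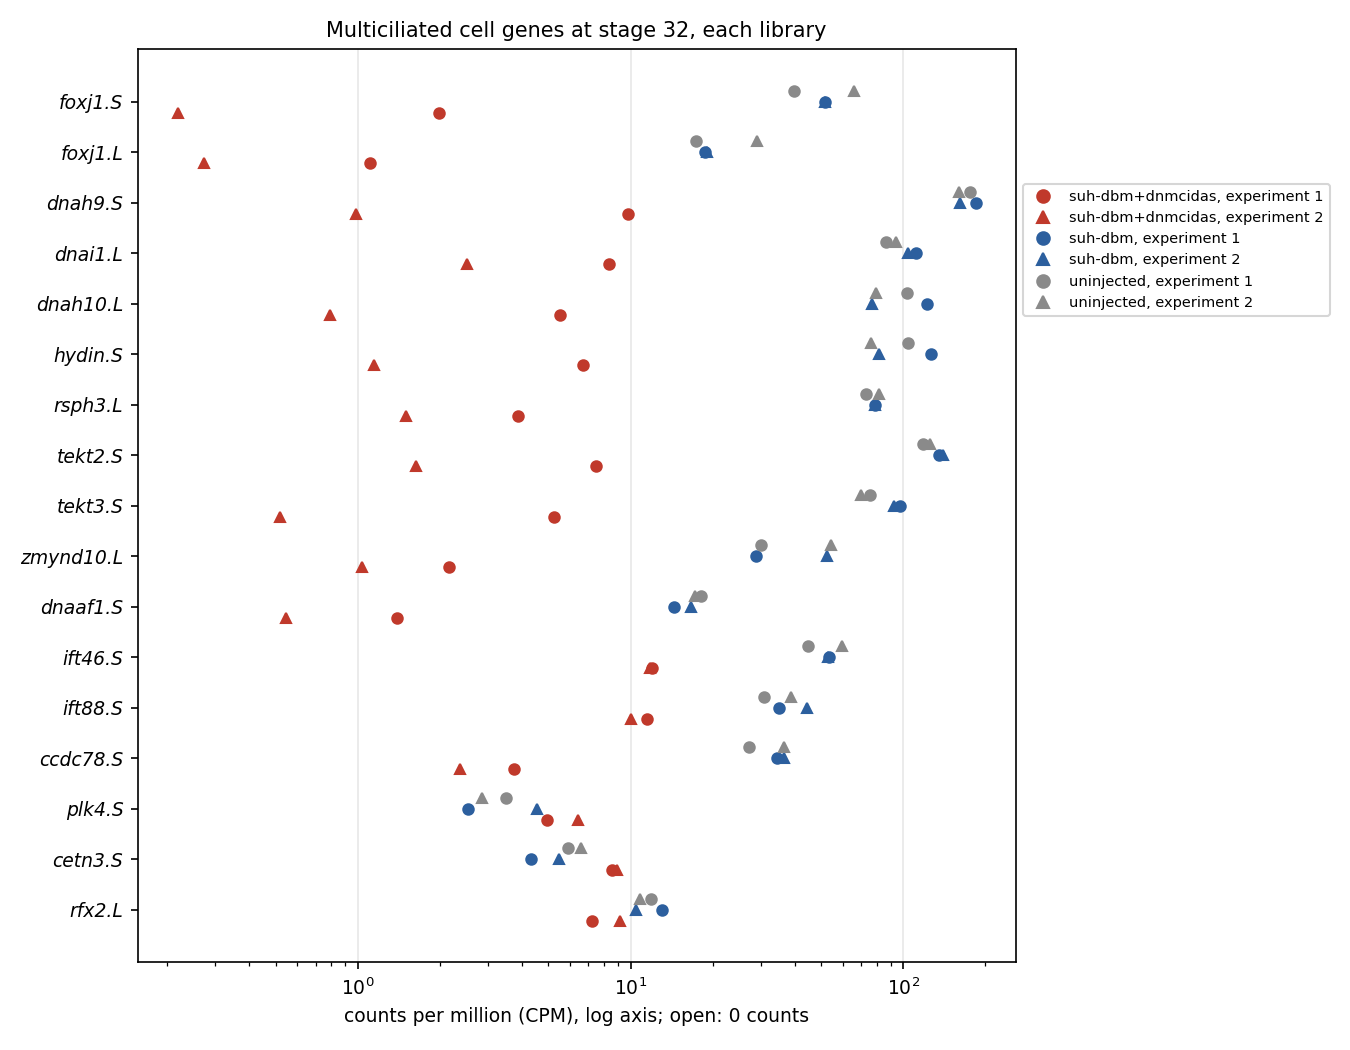
Level (CPM, log axis) of 17 genes of multiciliated cells in each library of stage 32, with suh-dbm+dnmcidas in red, suh-dbm in blue and uninjected explants in grey, circles for experiment 1 and triangles for experiment 2. From foxj1.S down to ccdc78.S the red points lie left of all others, while plk4.S and cetn3.S are not lower with dnmcidas.

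The plot of ciliary genes by library shows that the suh-dbm and uninjected libraries lay close together for axonemal genes, while the libraries with dnmcidas lay apart from both. It also shows a wide gap between the dnmcidas libraries themselves, since dnah9.S was at 9.83 CPM in experiment 1 and at 0.984 CPM in experiment 2.

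Of 23 tested copies of dynein assembly factor genes, whose products fold and preassemble the arms in the cytoplasm, 13 were called lower and the median was -1.83. The assembly factor zmynd10.L fell by 4.85 (± 0.49 SE, edgeR adjusted p 7.02e-07), from 28.8 and 52.4 CPM to 2.15 and 1.04 CPM. The genes pih1d3.L and ttc12.L fell by 4.75 and 4.44. At the other end spag1.L, also an assembly factor, was at 58.98 and 50.1 CPM with dnmcidas and at 54.5 and 46.6 CPM without it (-0.07 ± 0.23 SE, adjusted p 1).

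In the list of intraflagellar transport and BBSome genes, 31 of 58 tested copies were called lower and 0 higher, with a median of -1.54. Without experiment 2 of suh-dbm+dnmcidas 20 were called lower, and pairing within stage called 41. The transport gene traf3ip1.S fell by 3.77 (± 0.36 SE, edgeR adjusted p 5.98e-07), from 14.3 and 15.2 CPM to 1.2209 and 1.2301 CPM. Further examples were ttc26.L, which fell by 3.30, and dync2h1.L, the heavy chain of the retrograde motor, which fell by 3.29. The core train subunit ift88.S was at 11.5 and 10.005 against 34.9 and 44.3 CPM (-2.07 ± 0.27 SE, adjusted p 2.13e-05). The anterograde motor gene kif3b.S was at 21.7 and 24.5 against 32.2 and 33.1 CPM, a difference that passed with pairing (adjusted p 0.0131) and not without it (0.0714). Many products of this list also serve the single cilia of other cells. In ift46 the copies differed: ift46.S fell by 2.34 (± 0.31 SE), and ift46.L was at -0.91 (± 0.44 SE, adjusted p 0.49).

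Across the 6 lists of ciliary structure genes 143 of 186 tested copies, 76.9%, were called lower and 0 higher. In 34 pairs with both the L and the S copy tested, both copies were called lower in 18 pairs, 1 copy in 10 and neither in 6. Listed structure genes made up 19.5% of all lower calls.

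**Figure D3:**
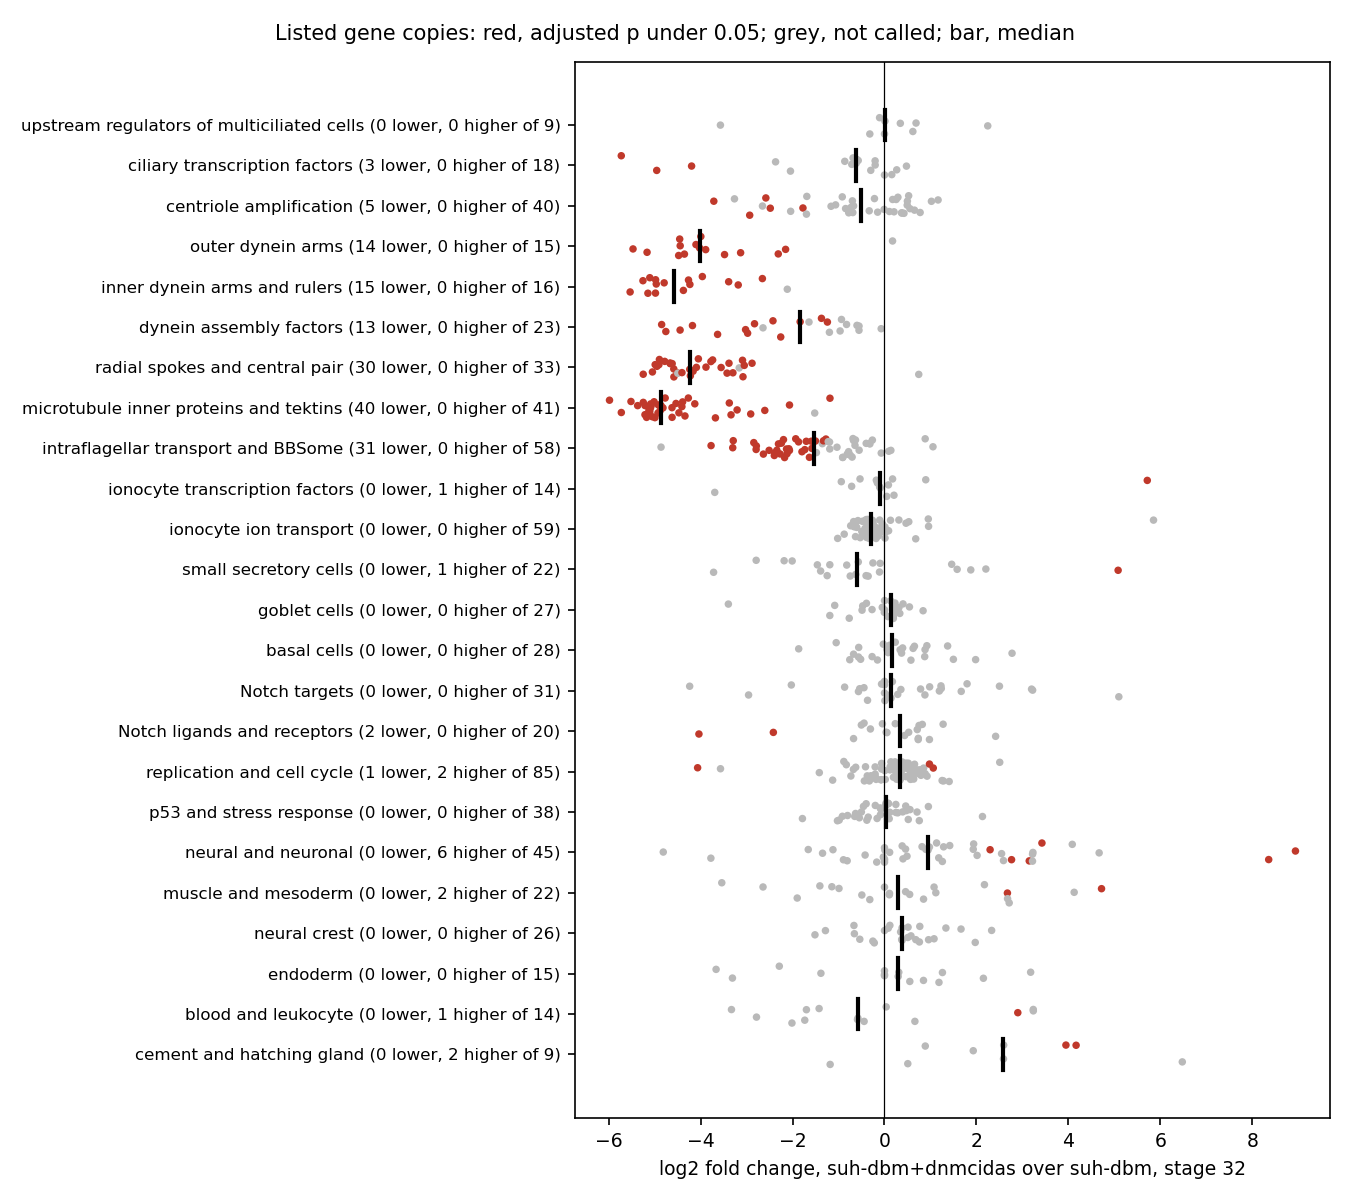
Log2 fold change (suh-dbm+dnmcidas over suh-dbm, stage 32) of every tested copy in 24 gene lists, red where the edgeR adjusted p was under 0.05 and grey where it was not, with a black bar at each median. The 4 lists of axonemal parts lie between medians of -4.02 and -4.86, the assembly factor and transport lists at -1.83 and -1.54, and the centriole list at -0.50.

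The plot of the lists sets these groups beside the centriole genes, of which a smaller share passed the test at stage 32. Multiciliated cells make many centrioles through the deuterosome pathway, with the kinase Plk4 and the scaffold proteins Cep152, Sass6 and Deup1. Of 40 tested copies of centriole amplification genes 5 were called lower and 0 higher, and the median was -0.50. Over all genes tested 2.32% were called lower. At an unadjusted edgeR p under 0.05 there were 18 of the 40 copies, 13 of them lower. The called members were ccdc78.S, a deuterosome-associated gene (34.5 and 36.5 CPM down to 3.75 and 2.38 CPM, -3.71 ± 0.62 SE, edgeR adjusted p 0.000385), cep41.S, cep41.L, mdm1.L and ccp110.L. The remaining called falls were by 2.93, 2.58, 2.48 and 1.77 in that order, and that of ccp110.L was lost without experiment 2 of suh-dbm+dnmcidas. Of the 40 copies 24 had a fold change below 0. Among those not called, deup1.L, ccno.S, ccno.L and cdc20b.L were near the floor, so the test could say little of them. Their fold changes were -1.69, -2.65, -2.04 and -3.26. With suh-dbm alone deup1.L was at 0.670 and 0.461 CPM, against 98.5 and 62.4 CPM at stage 16. The most abundant member not called was cetn4.L, whose levels split by experiment as given above (-0.01 ± 3.40 SE, adjusted p 1). Its log2 ratio was 0.02 in experiment 1 and -3.10 in experiment 2, so this fold change joins unlike experiments. In experiment 2 it was at 5.28 against 149 CPM at stage 16 and at 5.27 against 128 CPM at stage 25. In experiment 1 it was at 12943 against 9301 CPM and at 4037 against 2872.5 CPM at these stages.

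The kinase gene plk4.S was at 4.94 and 6.40 CPM with dnmcidas and at 2.52 and 4.52 CPM with suh-dbm alone, so the dnmcidas libraries were the higher ones, and the difference did not pass the test (0.49 ± 0.50 SE, edgeR adjusted p 0.906). The cartwheel gene sass6.L was at 15.1 and 20.04 against 8.83 and 12.2 CPM (0.55 ± 0.27 SE, adjusted p 0.492). With pairing within stage 8 copies of the list were called lower and 1 higher, the higher one being poc1a.L, a centriole wall gene (2.47 and 5.49 against 0.804 and 2.27 CPM, adjusted p 0.048, against 0.326 without pairing).

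For some centriole genes the dnmcidas effect differed between stages, which was tested gene by gene as the effect at stage 32 minus the effect at stage 16. These effects share no library. Over all genes 47 of 31647 differed (0.149%, edgeR adjusted p under 0.05, with 1897 at an unadjusted p under 0.05), 42 of them (0.133%) with a higher and 5 (0.0158%) with a lower value at stage 32. Of the 40 centriole copies 8 were among them, and the list's median difference was 1.64, against -0.06 over all genes tested. With pairing within stage 382 genes (1.21% of all tested) and 15 centriole copies passed. The count for all genes was 34, 11, 2 and 16 when experiment 1 or 2 of suh-dbm+dnmcidas or experiment 1 or 2 of suh-dbm was left out, so that it rested on each of the 4 libraries of stage 32, and most on experiment 1 of suh-dbm.

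For plk4.S the libraries of stage 16 held 1.44 and 2.87 CPM with dnmcidas and 63.2 and 38.5 CPM with suh-dbm alone, an effect of -4.67. At stage 32 the effect was 0.49, and the difference between stages was 5.17 (edgeR adjusted p 0.0028). The suh-dbm libraries of stage 32 held 2.52 and 4.52 CPM of it. The other copy, plk4.L, had effects of -1.36 at stage 16 and 0.21 at stage 32. Its difference of 1.57 passed with pairing within stage (edgeR adjusted p 0.0192) and not without it (0.389). The distal centriole gene cep120.L went the way of plk4.S. It was at 67.9 and 50.5 CPM with suh-dbm at stage 16 and at 3.22 and 8.70 CPM at stage 32. Its difference between stages was 3.38 (adjusted p 0.0271). The centrin gene cetn3.S differed by 2.54 (adjusted p 0.00125), cetn3.L by 2.02, poc1a.L by 4.28 (adjusted p 0.00538), cep76.L by 3.31, cntln.L by 2.75 and the appendage gene odf2.L by 2.19. None of the 8 copies that differed without pairing was called at stage 32 in the fit of all stages.

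In the list of microtubule inner proteins and tektins the median effect was -4.46 at stage 16, -6.06 at stage 25 and -4.86 at stage 32, and 0 of its copies differed between stages 16 and 32 by edgeR, with or without pairing. Among all 105 axonemal copies tested, 1 differed: iqcd.L, a dynein regulatory complex gene, with effects of -1.44 at stage 16 and -3.38 at stage 32 (difference -1.94, adjusted p 0.0171). The early factor foxj1.2.S differed by 7.05 (adjusted p 0.0352), at 39.2 and 28.7 CPM with suh-dbm at stage 16 and at 3.285 and 4.9999 CPM at stage 32. Between stages 25 and 32 the effect differed for 0 genes by edgeR, with 1198 genes at an unadjusted p under 0.05. Pairing within stage gave 2 genes (0.00632%) and the fit without a filter on low counts 34.

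**Figure D4:**
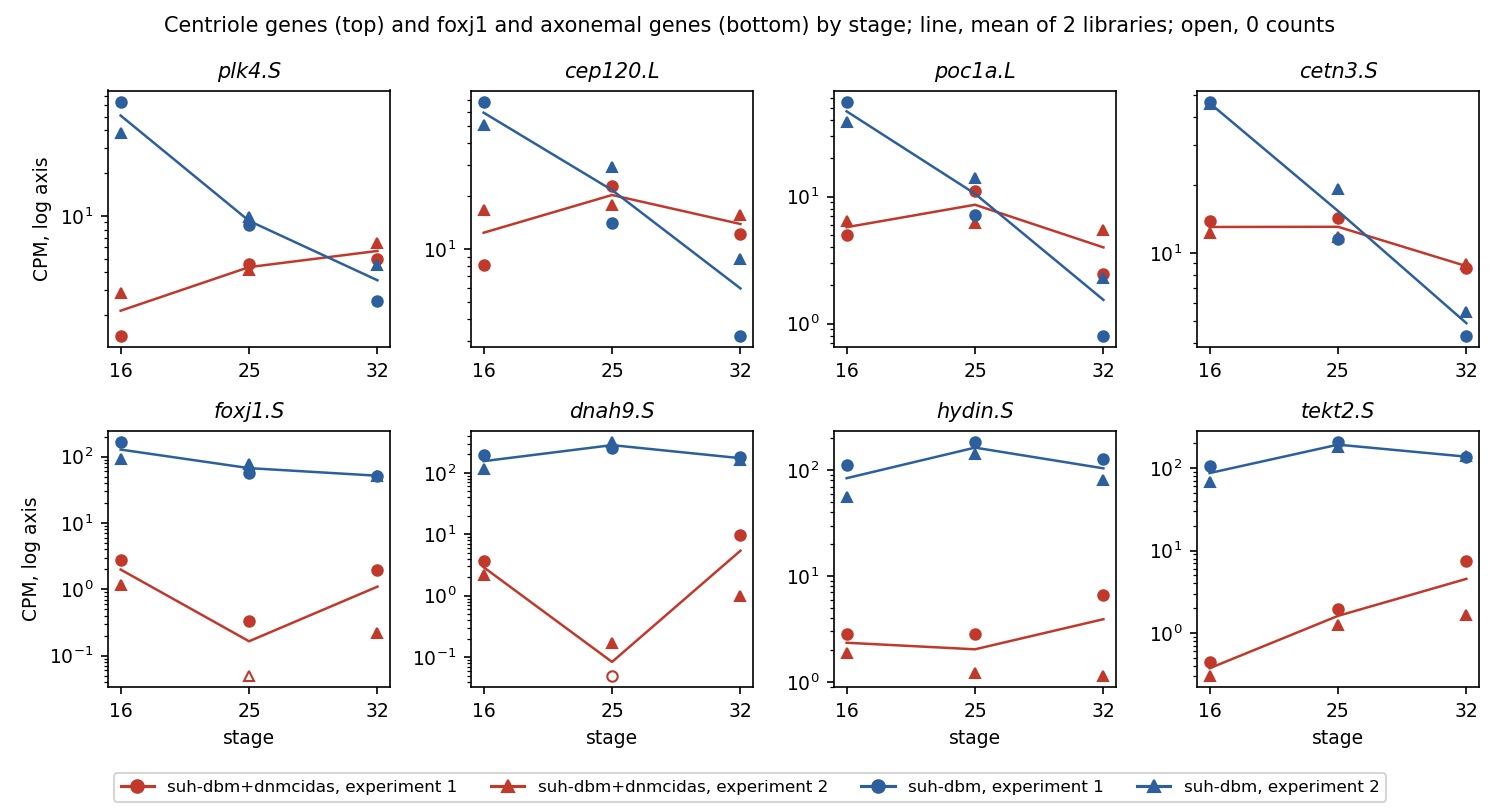
Level (CPM, log axis) of 4 centriole genes (top) and of foxj1.S and 3 axonemal genes (bottom) at stages 16, 25 and 32, with suh-dbm+dnmcidas in red and suh-dbm in blue, circles and triangles for experiments 1 and 2 and lines through the means of 2 libraries. Open symbols mark 0 counts. For the centriole genes the blue points lie above the red ones at stage 16 and under them on average at stage 32 (plk4.S 63.2 and 38.5 against 1.44 and 2.87 CPM, then 2.52 and 4.52 against 4.94 and 6.40 CPM), whereas for the lower row the groups stay apart at every stage shown.

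The plot of levels by stage puts both patterns side by side. The summed axonemal level with dnmcidas was 5.17% and 9.79% of that with suh-dbm at stage 16, 4.14% and 3.47% at stage 25 and 8.10% and 4.32% at stage 32, in experiments 1 and 2. Over the same stages mcidas.S in the dnmcidas libraries came down from 2258 and 1604 CPM at stage 16 to 946 and 545 CPM at stage 25 and to 142 and 234 CPM at stage 32. With suh-dbm alone mcidas.S was at 199 and 125 CPM at stage 16 and at 2.49 and 3.54 CPM at stage 25.

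Few listed genes of the other skin cell types passed the test in the fit of all stages, and genes not called may still differ. On simulated counts the test called 14% of 2-fold and 56% of 4-fold changes. The changed genes there were drawn from those with a mean of at least 1 CPM, on normalized library sizes, over the compared groups. Less abundant copies are therefore not covered. No difference between experiments was simulated. More calls came from an edgeR fit of the stage 32 libraries alone with pairing, which called 2603 genes in all, 1627 lower and 976 higher. It called lower 2 of 59 ionocyte transport, 2 of 14 ionocyte transcription factor, 2 of 27 goblet and 1 of 22 small secretory copies. It called higher 5 of 28 basal copies and 1 ionocyte transcription factor copy. The share of all genes called in that fit is not given here, so these counts are not read as a result about the lists. Of 59 tested copies of ionocyte ion transport genes 0 were called by edgeR's fit of all stages or DESeq2, with 2 at an unadjusted edgeR p under 0.05 and a median of -0.30. The most abundant, the proton pump subunit gene atp6v1b1.L, was at 1720 and 1633 CPM with dnmcidas and at 1575 and 2222 CPM without it. The ionocyte regulator foxi1.L was at 265 and 233 against 203 and 286 CPM, and the groups overlapped (-0.15 ± 1.07 SE, adjusted p 1). Both injected groups lay above uninjected explants for foxi1.L, which had 65.0 and 101 CPM there. Of 14 copies of ionocyte transcription factors 1 was called, foxi2.S, which was higher at 6.48 and 0.984 against 0.134 and 0 CPM (5.71 ± 1.39 SE, adjusted p 0.0175) and was not called without experiment 1 of suh-dbm+dnmcidas or experiment 2 of suh-dbm. Pairing within stage also called tfcp2l1.S lower (39.4 and 77.2 against 78.7 and 116.5 CPM, adjusted p 0.0281, against 0.61 without pairing).

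Goblet cell genes gave 0 calls of 27 by edgeR's fit of all stages or DESeq2, with 1 at an unadjusted edgeR p under 0.05 and a median of 0.13. Their leading gene, the lectin itln1.L, was at 5253 and 3014 CPM with dnmcidas and at 9508 and 5994 CPM with suh-dbm alone, lower in both experiments but not past the test (-1.08 ± 0.58 SE, adjusted p 0.587, and 0.28 with pairing). Basal cell genes gave 0 calls of 28 by edgeR's fit of all stages or DESeq2, with 2 at an unadjusted edgeR p under 0.05 and a median of 0.17. Pairing within stage called 1, the integrin gene itgb4.S (10.9 and 9.81 against 2.32 and 0.362 CPM, adjusted p 0.00102, against 0.265 without pairing). The basal regulator tp63.L was at 189 and 285 against 84.7 and 75.5 CPM, higher in both experiments but not past the test in the fit of all stages (1.37 ± 0.88 SE, adjusted p 0.726). With the stage 32 libraries alone its adjusted p was 0.0276, but with pairing within stage it was 0.39. The other copy, tp63.S, was also higher in both experiments. It passed neither in the fit of all stages (0.92 ± 0.49 SE, edgeR adjusted p 0.587) nor with pairing within stage (0.239). Small secretory cell genes gave 1 call of 22, the gel-forming mucin gene muc2, which held only without experiment 1 of suh-dbm+dnmcidas among the 4 leave-outs, with a median of -0.60, or -0.38 with copies at 0 counts in a group set to their bound. Their regulator foxa1.L was at 3.60 and 1.31 against 6.90 and 4.54 CPM (-1.39 ± 0.78 SE, adjusted p 0.626). The more abundant copy, foxa1.S, was at 8.60 and 5.77 against 10.2 and 6.55 CPM (-0.40 ± 0.81 SE) and was not called.

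Both groups had received suh-dbm mRNA to block the Notch pathway, but whether the block still held in these libraries was not tested. The listed Notch targets summed to 145 and 138 CPM with dnmcidas and to 86.0 and 82.6 CPM with suh-dbm alone. Uninjected explants had 93.0 and 93.0 CPM. These targets gave 0 calls of 31 by edgeR's fit of all stages or DESeq2, with 2 at an unadjusted edgeR p under 0.05. Their median was 0.14, or 0.01 with copies at 0 counts in a group set to their bound. Pairing within stage called 1, hes4.L (28.8 and 21.7 against 16.02 and 8.24 CPM, adjusted p 0.0382, against 0.291 without pairing). The feedback inhibitor nrarp.S, the most abundant of them, was at 42.8 and 55.9 against 15.7 and 22.2 CPM (1.19 ± 0.50 SE, adjusted p 0.355). Of 20 ligand and receptor copies 2 were called lower. The ligand jag2.L was at 0.930 and 0.902 against 3.80 and 4.84 CPM (-2.42 ± 0.62 SE, edgeR adjusted p 0.0244). The ligand-like gene dner.S was near the floor, at 0.0581 and 0.109 against 1.41 and 1.10 CPM (-4.04 ± 0.94 SE, adjusted p 0.0124). Leaving out a library of the comparison ended the call of jag2.L in all 4 cases and that of dner.S in 3 of the 4. Cell cycle and replication genes gave 1 lower and 2 higher calls of 85, with a median of 0.34. The higher ones were both copies of e2f3, an E2F factor of the cell cycle: e2f3.L was at 54.8 and 68.1 against 24.6 and 27.2 CPM (1.06 ± 0.26 SE, adjusted p 0.0163). The lower one was ccna1.L, a cyclin, at 0.116 and 0.0273 against 0.715 and 1.45 CPM. Each of these 3 calls was lost in 3 of the 4 leave-outs, and pairing within stage called 6 lower and 11 higher. Genes of the p53 and stress response gave 0 calls of 38 by edgeR's fit of all stages or DESeq2, with 2 at an unadjusted edgeR p under 0.05 and a median of 0.02. Pairing within stage called the chaperone gene hspa5 lower (321 and 267 against 542 and 436 CPM, adjusted p 0.0113). A more abundant entry of that gene, hspa5.S, was at 532 and 471 against 725 and 643 CPM. It was called neither with pairing (edgeR adjusted p 0.0925) nor without it (0.582).

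Of the 15 with the largest rises, the forkhead gene foxi4.1.L was at 16.9 and 7.41 CPM with dnmcidas and at 0.223 and 0 CPM with suh-dbm alone (6.72 ± 1.06 SE, edgeR adjusted p 0.000174). The simple epithelial keratin genes krt18.S and krt18.L rose by 6.18 (± 1.21 SE) and 3.98 (± 1.03 SE), krt18.L from 1.47 and 17.7 CPM to 94.9 and 253 CPM. The anterior homeobox gene otx1.L rose by 4.17 (± 0.53 SE, adjusted p 1.4e-05), from 0.804 and 0.773 CPM to 20.9 and 11.2 CPM. The Wnt receptor gene fzd7.S rose by 4.84 (± 0.75 SE), the chemokine gene cxcl12.L by 3.55 (± 0.87 SE), the peptide ligand gene apln.L by 3.53 (± 0.59 SE) and the adhesion gene cadm1.L by 3.62 (± 0.52 SE). In each of these genes the dnmcidas libraries lay above both suh-dbm libraries and both uninjected libraries. The calls of foxi4.1.L, otx1.L, fzd7.S, apln.L and cadm1.L held without any 1 of the 4 libraries. That of krt18.S was lost without experiment 1 of suh-dbm, and those of krt18.L and cxcl12.L without it or without experiment 2 of suh-dbm+dnmcidas.

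**Figure D5:**
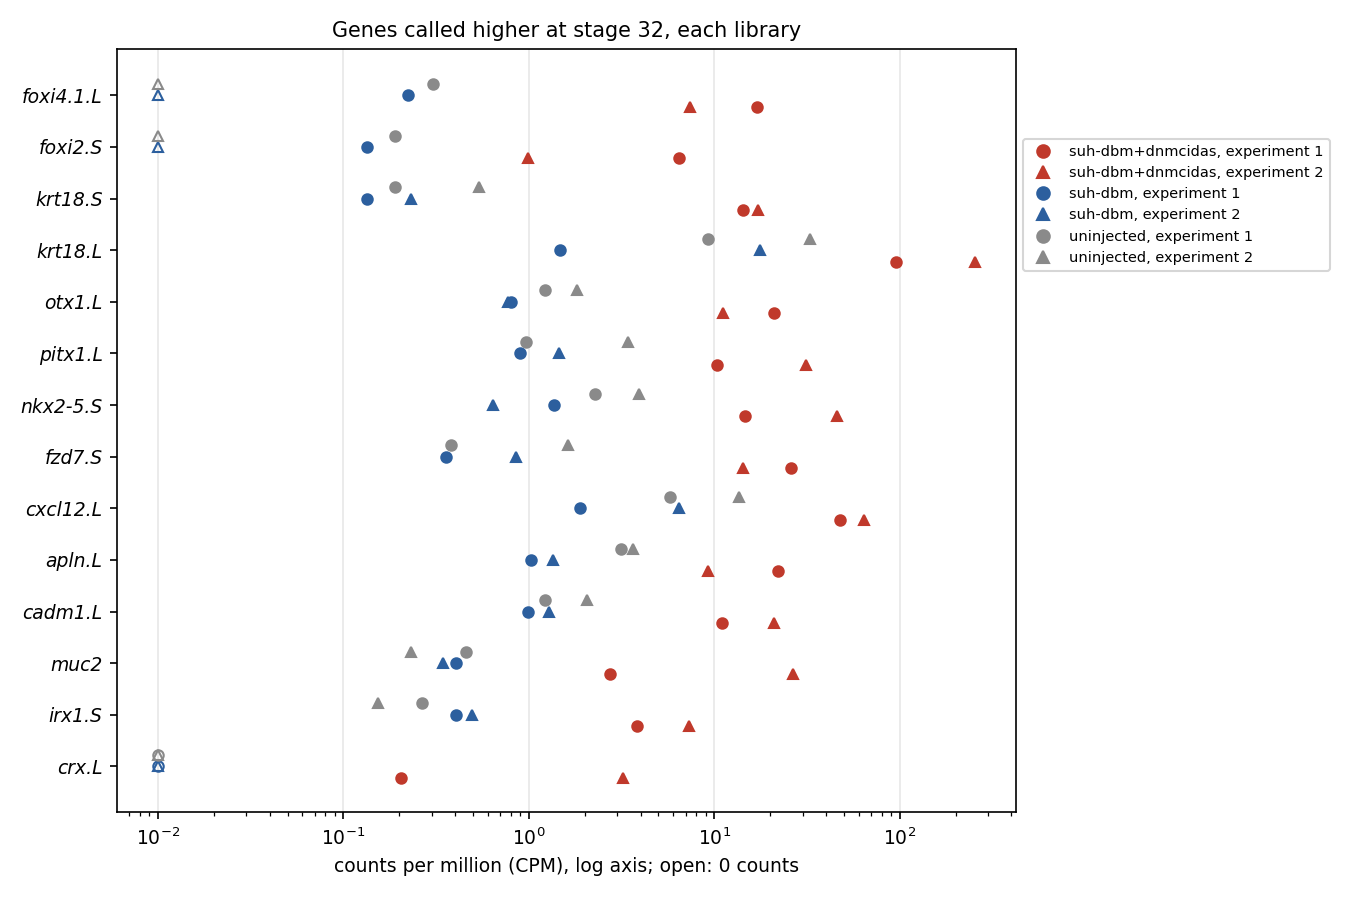
Level (CPM, log axis, open symbols for 0 counts) of 14 genes called higher, in each library of stage 32, with suh-dbm+dnmcidas in red, suh-dbm in blue and uninjected explants in grey, circles for experiment 1 and triangles for experiment 2. The red points lie right of all others for each gene, although muc2 and crx.L were much higher in experiment 2 than in experiment 1.

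Listed genes of other tissues appear among the rises in the plot. Of 9 copies in the cement and hatching gland list, 2 were called higher, otx1.L and the homeobox gene pitx1.L (10.3 and 31.4 against 0.894 and 1.45 CPM, 3.95 ± 0.94 SE, edgeR adjusted p 0.0148), and the median was 2.59. Pairing called 4, among them otx2.L (59.9 and 169 against 8.87 and 24.2 CPM, adjusted p 0.00121, against 0.316 without pairing). The cement gland genes ag1.L and ag1.S were not called, at 3.49 and 24.2 against 1.63 and 2.34 CPM for the L copy. The summed level of the list was 114 and 291 CPM with dnmcidas, 22.2 and 48.4 CPM with suh-dbm alone and 35.7 and 95.4 CPM in uninjected explants. Without experiment 2 of suh-dbm+dnmcidas, or without either suh-dbm library, 1 member was called.

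Of 45 tested copies of neural and neuronal genes 6 were called higher and 0 lower, and the median was 0.95, or 0.49 with copies at 0 counts in a group set to their bound. The called copies were irx1.S (3.84 and 7.27 against 0.402 and 0.493 CPM, 3.42 ± 0.60 SE, edgeR adjusted p 0.000618), both copies of the neural progenitor gene sox3, the adhesion gene ncam1.L, and crx.L and crx.S, which encode a photoreceptor homeobox factor. The crx copies had 0 counts in both suh-dbm libraries, so that crx.L was at least 61.5-fold and crx.S at least 41.1-fold higher, taking 3 counts over the group as the floor. Most of these counts came from experiment 2: crx.L had 7 counts with dnmcidas in experiment 1 and 117 in experiment 2, and crx.S had 0 and 83. Without experiment 2 of suh-dbm+dnmcidas the bound for crx.L was 7.16-fold, and crx.S had no counts in either group. Both crx calls and that of sox3.L were lost in 3 of the 4 leave-outs. Those of sox3.S and ncam1.L were lost in all 4, and that of irx1.S held in all 4. Without 1 library the count of called neural copies was 3, 1, 2 or 1. The summed level of the list was 220 and 344 CPM with dnmcidas, 126 and 92.1 CPM with suh-dbm and 138 and 147 CPM in uninjected explants, while zic1.L, neurog2.S and olig2.L had 0 counts in all libraries of the comparison and sox2.L had at most 0.0581 CPM. Whether tissue of another kind in the explants took part in these rises was not tested.

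In the muscle and mesoderm list the heart homeobox gene nkx2-5.S was at 14.6 and 45.6 against 1.36 and 0.641 CPM (4.72 ± 1.08 SE, edgeR adjusted p 0.0107). The T-box gene vegt.L was near the floor, at 0.349 and 1.07 against 0.0894 and 0.0987 CPM. Uninjected explants had 0.228 and 0.463 CPM of vegt.L. Of 22 muscle and mesoderm copies these 2 were called, both higher. Without experiment 2 of suh-dbm+dnmcidas, or either suh-dbm library, 0 of these copies were called. Neural crest and endoderm lists gave 0 calls of 26 and 15 by edgeR, with 4 and 1 at an unadjusted p under 0.05 and DESeq2 calling 1 and 0. Pairing within stage called 2 crest copies higher, snai1.S and pmel.L. Of 14 blood and leukocyte copies 1 was called higher, coro1a.S, a call that held without experiment 2 of suh-dbm+dnmcidas and was lost in the other 3 leave-outs. The levels of coro1a.S were near the floor, at 1.37 and 0.738 against 0.112 and 0.132 CPM. Pairing within stage also called the erythroid factor gata1.L lower (0.0581 and 0.0547 against 0.760 and 0.296 CPM).

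Among the largest rises foxi4.1.L, otx1.L, cadm1.L and apln.L had an effect at stage 32 that differed from that at stage 16. The differences were 6.90, 3.44, 3.70 and 3.82 (edgeR adjusted p 0.0227, 0.0345, 0.0226 and 0.0392), and at stage 16 the effects were -0.18, 0.72, -0.08 and -0.29. At stage 25 the effects were 4.03, 4.24, 3.32 and 1.48.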

How the data were processed

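Poly-A RNA of animal cap explants was sequenced with an unstranded kit as paired-end reads, per the labels' protocols, so reads of a gene and of an antisense partner cannot be told apart. The authors deposited raw counts per gene for each library. The submitters' processing notes name FastQC 0.11.5, STAR 2.6.0b-1, featureCounts 1.6.3 and DESeq2 1.22.1, and per the file headers the counted alignments came from RNA STAR. The genome build is not given in the sources used here, so no coordinates or sequences are printed. Of 51017 gene IDs 48349 had a deposited symbol, and 3671 of 15459 LOC names were matched to a symbol in RefSeq's Xenopus laevis table.

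From the counts, CPM per library were computed without further scaling. Differences were tested in R 4.3.3 with edgeR 4.0.16 (limma 3.58.1): TMM factors, filterByExpr (minimum count 10, minimum total 15), and one quasi-likelihood fit of 40 libraries in 20 groups without a block, with Benjamini-Hochberg adjustment over 31647 genes and a threshold of 0.05. The test was checked on simulated counts with known changes in 50 genes per fold. It called 14% of those changed 2-fold, 56% at 4-fold, 88% at 16-fold and 96% at 64-fold. Of 129 calls 2 were false. Experiments had different females and fertilizations per the labels, so libraries of one number were treated as pairs in fits with the experiment as a block within each stage. Deviations of same-numbered libraries of stage 32 correlated at 0.525, 0.442 and 0.572 in the 3 pairs of groups. P-values measure the spread between 2 libraries a group, with the spread shared over all groups. Alternatives were another block, RLE factors, no filter, fewer libraries, DESeq2 1.42.0 and summed L and S copies.

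Genes were named by a rule: the 15 called genes with the largest fold change in each direction among those with the same sign in both experiments, a mean of at least 5 CPM and a proper symbol; per list, the 3 called copies with the largest change and the most abundant copy not called; and mcidas, gmnc, rbpj, foxj1, foxi1, foxa1, tp63 and itln1. Other copies named were chosen after their values were seen. The comparison and the gene lists were chosen with earlier results of these data known. The authors' own comparison tables were not used here.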

Additional observations from a re-analysis of the deposited data

Results flagged for a closer look

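For 16 named or listed copies the effect of dnmcidas at stage 32 differed from that at stage 16 by a test of the difference itself (edgeR quasi-likelihood, adjusted p under 0.05 over all genes). Among centriole genes the differences, stage 32 minus stage 16 on the log2 scale, were 2.02 for cetn3.L, 2.19 for odf2.L, 2.54 for cetn3.S, 2.75 for cntln.L, 3.31 for cep76.L, 3.38 for cep120.L, 4.28 for poc1a.L and 5.17 for plk4.S. Among other ciliary genes they were -1.94 for iqcd.L, 2.99 for the dynein assembly gene spag1.S, 4.46 for the BBSome chaperonin gene bbs12.L and 7.05 for foxj1.2.S. Among genes called higher at stage 32 they were 3.44 for otx1.L, 3.70 for cadm1.L, 3.82 for apln.L and 6.90 for foxi4.1.L. All 16 kept their sign without any 1 of the 4 libraries of stage 32. The number still called was 10 and 6 without experiment 1 or 2 of suh-dbm+dnmcidas, and 2 and 6 without experiment 1 or 2 of suh-dbm. With pairing within stage 16 were called. Their cause was not tested.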

How the results depend on the processing

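With pairing by experiment within stage (the replicate block) 2261 genes were called, 901 higher and 1360 lower, with 33 listed copies higher. A block with 1 term for all stages called 284 higher. The stage 32 libraries alone with a block, chosen after seeing the data, gave 2603 calls, 976 higher and 1627 lower, with 43 listed copies higher. Without a block they gave 114 higher, with 5 listed copies. DESeq2 called 428 higher. The 4 libraries of the comparison alone gave 309 calls, 16 higher and 293 lower, with 1 listed copy higher and 83 lower. Leaving out a library gave 448 to 764 calls, 53 to 164 higher and 378 to 629 lower, and 4 to 9 listed copies higher and 111 to 143 lower. Effects that differed from stage 25 numbered 2 with the within-stage block, 34 without a filter and 0 to 1 in the leave-outs. Those that differed from stage 16 numbered 83 with the 1-term block, 382 with the within-stage block, 121 without a filter and 2 to 34 in the leave-outs. The median of the muscle and mesoderm list ranged from -0.49 without experiment 2 of suh-dbm+dnmcidas to 0.76 without experiment 2 of suh-dbm, and was -0.26 with L and S copies summed. That of the blood and leukocyte list ranged from -0.73 without experiment 1 of suh-dbm to 0.56 without experiment 2 of suh-dbm. The cause was not tested. Of 63 called named genes 25 of the 61 tested were still called with the 4 libraries of the comparison alone, 49 with the stage 32 libraries alone, 59 with those and a block, 55 and 46 without experiment 1 or 2 of suh-dbm+dnmcidas, and 48 and 50 without experiment 1 or 2 of suh-dbm. With L and S copies summed 58 were called, without a filter 61, with the within-stage block 62, and with the 1-term block, RLE factors or DESeq2 63.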

Other observations

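Several of the 15 largest falls were in genes outside the ciliary lists. The fatty acid elongase gene elovl2.L was at 0.0581 and 0.219 CPM with dnmcidas and at 8.38 and 12.01 CPM with suh-dbm alone (log2 fold change -6.34 ± 0.81 SE, edgeR adjusted p 1.33e-05). The alpha-tubulin gene tuba1a.S was at 21.02 and 3.53 against 394 and 770 CPM (-5.73 ± 1.02 SE). The calcium-activated cation channel gene trpm4.L had a log2 fold change of -5.91 (± 1.07 SE), and bbof1.L, a basal body orientation gene, one of -5.76 (± 0.85 SE). In all 4 genes the groups were far apart, and uninjected explants lay near suh-dbm alone, with 500 and 773 CPM of tuba1a.S. Of the 734 lower calls 583 lay in no ciliary list, 315 of them with a proper symbol. Of the 734, 688 were also lower at stage 25 and 585 at stage 16 by the same test. Over all genes 1237 were called lower at stage 25 and 956 at stage 16. Of the 189 higher calls 102 were also higher at stage 25, where 662 genes were called higher in all, and 1 at stage 16, where 67 were.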
